A study of Mus musculus with 8 samples.

Results

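The 2 arrays whose titles carry the word Dil were taken as the vehicle baseline of the newborn mouse lung and are described here by the transcripts that gave the brightest signals, the cell types those transcripts mark, and the agreement of the 2 arrays. They are 2 of the 8 arrays of a study on the inhibition of alveolar septation, each hybridized with total RNA of whole lung. Dil was read as oil on day 3 and saline on day 4, by elimination, because no label defines the word; Dex arrays had oil and then dexamethasone, RA arrays retinoic acid and then saline, and RA-Dex arrays retinoic acid and then dexamethasone, with 2 arrays each. All mice were 3 days old at the first treatment, and every group, Dil included, was treated on both days. The labels name neither the strain, nor the doses, nor when the lungs were taken, and nothing says whether the arrays lettered a and b came from separate animals, from pools or from repeated hybridizations.

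In the first weeks after birth the mouse lung turns wide saccules into alveoli by raising septa from their walls. Myofibroblasts at the septal tips lay down elastin, capillary endothelium folds into the new ridges, type II epithelial cells secrete surfactant and renew the epithelium, and flat type I cells form the surface for gas exchange. The tissue still divides, so transcripts of the cell cycle are part of a normal newborn lung. Glucocorticoids are known to stop this process in rodents.

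Signals are deposited intensities on a linear scale, 1 value per probe set and array. A probe set's brightness depends on its probes as well as on the amount of transcript, so the ranks below order brightness and not molecule number. Where a gene had several probe sets, the one brightest by mean Dil signal was used. Over the 1711 genes with at least 2 probe sets and a brightest one above a signal of 200.8, the brightest and dimmest probe sets of the same gene lay a median of 4.56-fold apart and in 31.7% over 8-fold apart, whereas the 2 Dil arrays differed by a median of 0.24 on the log2 scale for those genes. A dim probe set is therefore no evidence that a transcript was absent. Of the 12422 non-control probe sets, 6980 (56.2%) exceeded 200.8, the 40th percentile of all signals of the 8 arrays, in both Dil arrays.

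By the mean of the 2 arrays, the brightest transcript of the newborn lung was that of a surfactant protein, although in Dil a alone the ribosomal Rpl41 was brighter. Sftpc, which encodes surfactant protein C of type II cells, ranked 1 with a signal of 61592 in Dil a and 84336 in Dil b, against 66508 to 80814 over the other 6 arrays. Eln, which encodes tropoelastin, the soluble precursor of the elastic fibre, ranked 9 at 39708 in Dil a and 51797 in Dil b, against 43079 to 59251 on the other arrays. Both genes were thus near the top of the whole array, and on both the signal was higher in Dil b, by 1.37-fold for Sftpc and 1.30-fold for Eln. For Eln the second probe set had a mean Dil signal of 2609, so the same gene also shows how far brightness depends on the probes.

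The other 2 genes taken as markers, one of dividing cells and one of capillary endothelium, were lower in the order but clearly measured. Ccnb2, a cyclin of the G2 and M phases, had 5119 in Dil a and 5818 in Dil b (percentile 96.6 of all non-control probe sets), against 2943 to 6437 over the other 6 arrays. Kdr, the main receptor for vascular endothelial growth factor on endothelium, had 1765 in Dil a and 1605 in Dil b (percentile 84.8), against 807 to 2178. For these genes the Dil values lay inside the range of the other arrays.

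**Figure D1:**
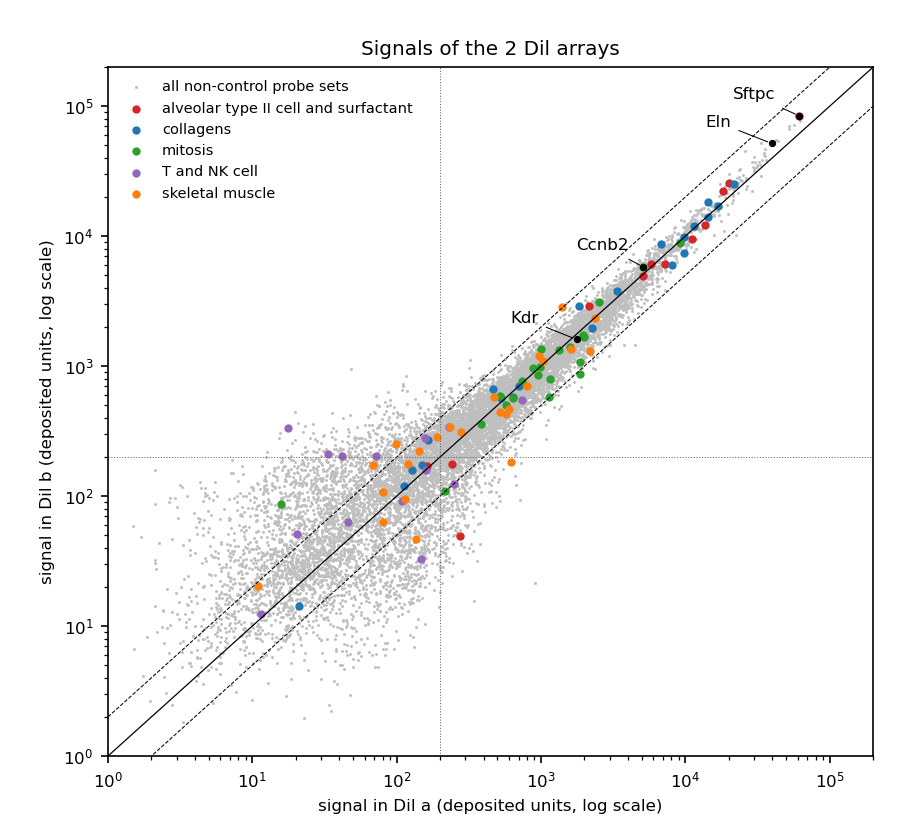
Signal in Dil b against signal in Dil a on log axes for the 12422 non-control probe sets (grey), with the genes of 5 lists coloured and the 4 marker genes in black. The solid line marks equal signals, the dashed lines a 2-fold difference and the dotted lines a signal of 200.8; type II and collagen genes lie along the diagonal at the bright end, while many T and NK cell genes fall in the scattered cloud at the dim end.

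After Sftpc, the top probe sets with 1 gene symbol were for proteins of translation, haemoglobin, airway secretion, elastin and the cytoskeleton. Ranks 4 and 5 were held by probe sets without a single symbol, which are not named here. Rpl41 of the large ribosomal subunit ranked 2 with 62398 in Dil a and 77104 in Dil b, and the elongation factor Eef1a1 ranked 6 with 44036 in Dil a and 54317 in Dil b. Hba-a1, the alpha chain of adult haemoglobin, ranked 3 with 56862 in Dil a and 71216 in Dil b; it has a near-identical neighbour, so its signal may hold both copies, and the labels do not say whether the lungs were flushed of blood. Scgb1a1, the secretory protein of airway club cells, ranked 8 with 40353 in Dil a and 52034 in Dil b. The 10 brightest probe sets thus included genes of the alveolar epithelium, the conducting airway, blood and elastin-making cells.

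Among the 30 brightest probe sets with a single gene symbol, outside the ribosomal and elongation lists, 3 genes were of the type II cell list (Sftpc, Sftpb and Napsa) and 5 were of the actin and tubulin list (Tuba1a, with 2 probe sets, Tuba1c, Tmsb10, Tmsb4x and Actg1). Sftpb, the surfactant protein needed for a stable film at the first breath, had 20227 in Dil a and 25610.1 in Dil b. Napsa, a protease that processes surfactant protein precursors, had 18242 in Dil a and 22439.8 in Dil b. Ager, the receptor that marks type I cells, had 22068 in Dil a and 25628 in Dil b. Col1a1, a chain of fibrillar collagen I, had 21882 in Dil a and 25430.2 in Dil b, and Bgn, the matrix proteoglycan biglycan, had 17395 in Dil a and 25212 in Dil b. Eng, an endothelial co-receptor of the transforming growth factor beta family, was the only member of the endothelial list among the 30, at 18819.7 in Dil a and 24252 in Dil b.

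The remaining named probe sets of this set were for proteins used by most cells. They included the signalling subunits Gnas and Gnai2, the nucleic acid binding protein Ybx1, the actin-binding thymosins Tmsb10 and Tmsb4x, Ly6e, Ptms, App, Jund, Lgals1, Dynll1, Arf1, Rac1, Anxa2 and Hmgn1. Sprr1b, known as a cornified envelope protein of squamous epithelium, was also among them at 23413 in Dil a and 32390.3 in Dil b. That value came from a probe set with the suffix r, as did that of Ptms. The other probe set of Sprr1b had a mean Dil signal of 10.4, so the 2 probe sets for this gene gave opposite pictures. The names Gnas, Gnai2, Ly6e, Tuba1c and Dynll1 rest on probe sets whose suffix marks probes shared with other transcripts, and their brightness may hold related genes. The same holds for the dimmer probe set of Tuba1a, while the brighter one has the suffix i.

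**Figure D2:**
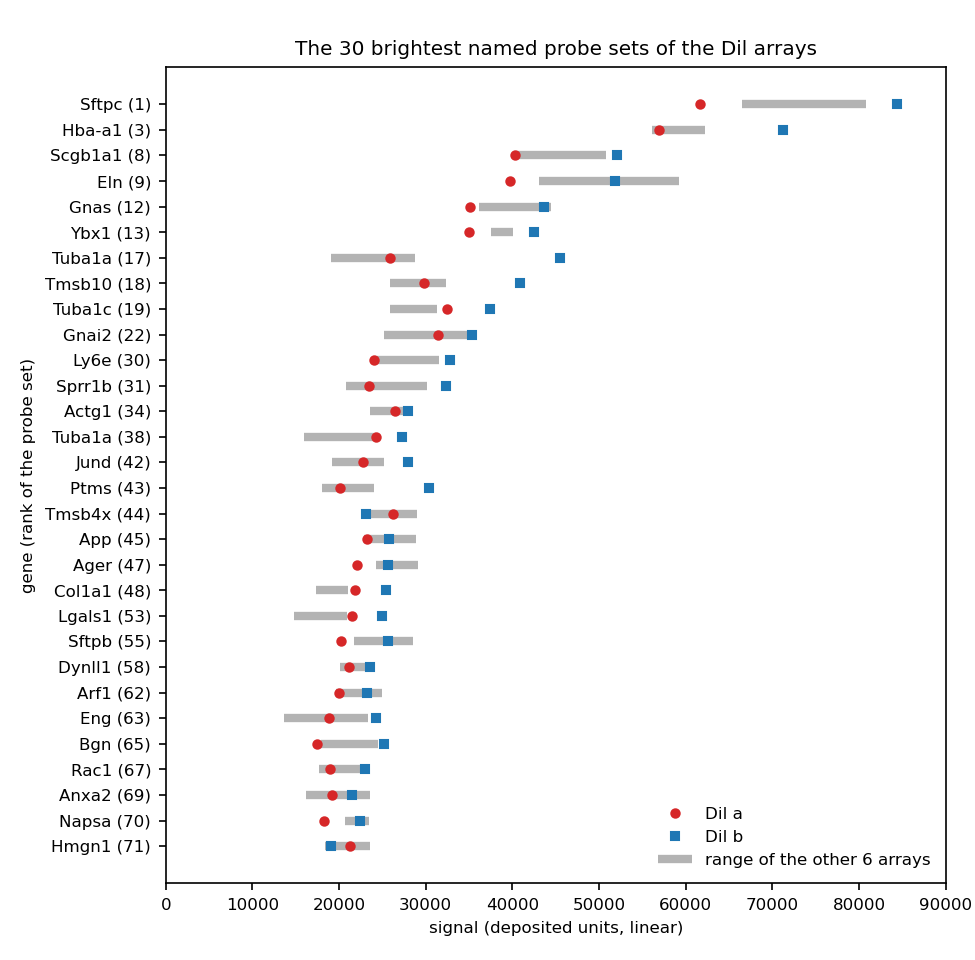
Signal on a linear axis of the 30 brightest probe sets with a single symbol outside the ribosomal and elongation lists, ordered by rank among all probe sets (in brackets), for Dil a (circles) and Dil b (squares), with the range of the other 6 arrays as a grey bar. Sftpc stands at the top with 61592 in Dil a and 84336 in Dil b, and the squares lie to the right of the circles for all but 2 of the genes, Tmsb4x and Hmgn1.

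The brightest probe sets held a modest part of the total signal. The 50 brightest carried 11.8% of the summed signal in Dil a and 13.7% in Dil b, and 785 probe sets in Dil a and 717 in Dil b made up 50%. Of these 50, 31 had 1 gene symbol, 16 had several and 3 had none, and 9 were ribosomal proteins. Letter suffixes such as f, s, i or r occurred on 32% of the 50, against 22.6% of all non-control probe sets. In all, 43 probe sets were among the 50 brightest of each Dil array, and 38 of the 50 were also among the 50 brightest of all 6 other arrays. Within the 50, Spearman's rho between the 2 arrays was 0.848 across probe sets, while neighbours could not be separated, since in 49 of 49 neighbouring pairs the values of the 2 arrays overlapped.

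Proximal promoter sequences are shown for 5 genes that stand for blood, type II cells, type I cells, endothelium and dividing cells. They are the 150 bases before the transcription start, from RefSeq (GRCm38.p6); Sftpc, Scgb1a1 and Eln are named only. Capitals mark TATAA and CCAAT, searched on both strands.
Hba-a1, chr11:32283522-32283671, plus strand: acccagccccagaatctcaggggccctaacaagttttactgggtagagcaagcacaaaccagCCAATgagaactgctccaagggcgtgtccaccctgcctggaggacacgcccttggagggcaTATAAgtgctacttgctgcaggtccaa
Sftpb, chr6:72304460-72304609, plus strand: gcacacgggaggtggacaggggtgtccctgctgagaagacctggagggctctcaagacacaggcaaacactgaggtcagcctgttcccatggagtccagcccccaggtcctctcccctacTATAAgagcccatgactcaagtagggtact
Ager, chr17:34597700-34597849, plus strand: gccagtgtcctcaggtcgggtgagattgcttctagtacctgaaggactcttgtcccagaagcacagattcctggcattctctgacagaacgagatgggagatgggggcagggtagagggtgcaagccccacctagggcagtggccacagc
Kdr, chr5:75978456-75978605, minus strand: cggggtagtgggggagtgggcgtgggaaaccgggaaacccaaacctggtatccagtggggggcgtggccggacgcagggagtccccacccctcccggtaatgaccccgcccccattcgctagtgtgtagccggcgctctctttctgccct
Ccnb2, chr9:70421555-70421704, minus strand: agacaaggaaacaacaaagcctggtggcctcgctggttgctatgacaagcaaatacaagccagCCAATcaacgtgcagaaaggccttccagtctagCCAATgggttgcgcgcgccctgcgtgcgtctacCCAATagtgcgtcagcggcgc
The Hba-a1 window held TATAA 27 bases and CCAAT 88 bases before the start, and the Sftpb window TATAA 30 bases before it. Ccnb2 held 3 CCAAT, starting 87, 54 and 21 bases before the start, and no TATAA. Neither motif was found in the Ager or Kdr window, and 67.3% of the Kdr bases were G or C. The search began with TATAAA, which matched none of these 5 windows; the shorter TATAA, which every TATAAA also contains, was chosen after the sequences were seen. Over windows of the same length, TATAA occurred in 13.9% of 101 promoters of 78 of the 100 brightest genes, in 9.90% of 8412 promoters of the genes measured here and in 14.2% of all 32851 promoters in the table. TATAAA occurred in 8.91% of the promoters of the brightest genes, 5.79% of those of measured genes and 7.57% of all, and CCAAT in 24.8%, 26.7% and 24.5% of the same sets. At least 3 CCAAT occurred in 0.990% of the promoters of the brightest genes, 1.76% of those of measured genes and 1.20% of all promoters. None of these differences was tested. These matches describe letters only.

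Genes of alveolar type I and type II cells and of club cells were bright as groups. For scale, the brightest probe sets of all 8251 genes had a median percentile of 59.0. In the brightest 10% of probe sets lay 1021 (12.4%) of the genes, and 5423 (65.7%) of the genes exceeded 200.8 in both Dil arrays. Of 12 measured genes of the type II list, 9 did so, the same 9 lay in the brightest 10% of probe sets, and the list's median percentile was 97.2. Besides the genes above, Slc34a2, the phosphate transporter of type II cells, had 13688 in Dil a and 12182 in Dil b, Lyz2, a lysozyme of type II cells and macrophages, had 11143 in Dil a and 9475 in Dil b, and Ctsh, a protease of surfactant processing, had 7228 in Dil a and 6165 in Dil b. The 3 dimmest were Cd36, Pon1 and Sftpd; Sftpd, which encodes surfactant protein D, had only 161 in Dil a and 169.9 in Dil b. All 7 measured type I genes exceeded 200.8 in both arrays, with a median percentile of 97.4. Hopx had 11957 in Dil a and 9595 in Dil b, Cav1, the caveolar coat protein that endothelium also uses, had 8298 in Dil a and 6238 in Dil b, and Pdpn, the mucin-like podoplanin, had 1325 in Dil a and 1088 in Dil b. Hopx in the Dil arrays was below its range of 14939.7 to 20239 over the other 6 arrays, a difference that was not tested.

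Among airway cells, the club cell list stood higher than the ciliated cell list. The 7 club cell genes had a median percentile of 97.9, with 6 above 200.8 in both arrays. The dimmer members were Cyp2b10 at percentile 67.5, Gsta3 at 47.2 and Cbr2 at 41.5, against a median of 59.0 for all genes. Cyp2f2, a cytochrome P450 of club cells, had 6674 in Dil a and 8564 in Dil b, and Hp, haptoglobin, had 11575 in Dil a and 14521 in Dil b. The 6 measured ciliated cell genes had a median percentile of 64.4. Foxj1, the transcription factor that sets up motile cilia, had 1067 in Dil a and 1425 in Dil b, and Rsph1, a radial spoke protein of the ciliary axoneme, had 1906 in Dil a and 2408 in Dil b, whereas Tekt1, a filament protein of cilia, stayed at 117 in Dil a and 70.3 in Dil b. All 11 measured epithelial transcription factor and adhesion genes exceeded 200.8 in both arrays, with a median percentile of 81.2; Foxa2, a forkhead factor of lung epithelium, had 1786 in Dil a and 1752 in Dil b, and Cdh1, E-cadherin, had 979 in Dil a and 1013 in Dil b. In whole lung, fewer cells of a type and less RNA per cell cannot be told apart, so these levels do not count cells.

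Most of the elastic fibre and collagen genes measured exceeded 200.8 in both Dil arrays, although RNA of whole lung does not place them in the septum. Of 12 elastic fibre genes, 11 exceeded 200.8 in both Dil arrays, and the median percentile was 89.4. Mfap4, a microfibril protein that binds elastin, had 11641 in Dil a and 13637 in Dil b on a probe set with shared probes, while its other probe set had a mean Dil signal of 97.5. Mfap2, a microfibril glycoprotein, had 9069.6 in Dil a and 10467 in Dil b, and Ltbp4, which carries latent growth factor and guides elastic fibre assembly, had 6251 in Dil a and 7377 in Dil b. Fbln1, a fibulin of elastic matrix, had 4662 in Dil a and 5657 in Dil b. The dimmest were Loxl1, a cross-linking enzyme, at 632 in Dil a and 671 in Dil b, the microfibril protein Fbn2 at 324 in Dil a and 374 in Dil b, and Ltbp1 at 209.7 in Dil a and 61.7 in Dil b. Of 21 collagen genes, 16 were above 200.8 in both arrays (median percentile 89.7). Fibrillar Col1a2 had 16978 in Dil a and 17108 in Dil b. Of the basement membrane chains, Col4a2 had 14368 in Dil a and 18291 in Dil b, and Col4a1 had 14455 in Dil a and 14114 in Dil b. At the dim end, the cartilage collagens Col10a1 and Col11a1 lay below 200.8 on both arrays, whereas Col9a1, also of cartilage, had 641 in Dil a and 576 in Dil b. Col4a3, a basement membrane chain, was at 21.2 in Dil a and 14.4 in Dil b.

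Basement membrane, contractile and fibroblast genes followed the same picture. All 21 genes of the basement membrane and other matrix list exceeded 200.8 in both arrays, led after Bgn by Sparc, a collagen-binding matricellular protein, at 12574 in Dil a and 11009 in Dil b. All 14 smooth muscle and myofibroblast genes did so as well, with a median percentile of 89.2. Acta2, the actin of smooth muscle and myofibroblasts, had 10744 in Dil a and 11717 in Dil b. Tagln, transgelin, had 7684 in Dil a and 8358 in Dil b, and Myh11, the smooth muscle myosin heavy chain, had 3115 in Dil a and 3102 in Dil b. Of 21 fibroblast and lipofibroblast genes, 19 exceeded 200.8 in both arrays and 12 were in the brightest 10%. Gsn, the actin-severing protein gelsolin, had 10044 in Dil a and 11181 in Dil b. By contrast Vim, the intermediate filament protein that fibroblasts make in quantity, had only 208 in Dil a and 250.2 in Dil b, Pparg, a regulator of lipofibroblasts, had 135 in Dil a and 52.0 in Dil b, and the mesenchymal growth factor Fgf10 had 14.9 in Dil a and 60.2 in Dil b.

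Enzymes that remodel matrix and their inhibitors ranged from bright to dim. Of 16 proteases and inhibitors, 10 (62.5%) exceeded 200.8 in both arrays and 4 (25%) were below 85.3, the 25th percentile of all signals, on both. For scale, 5423 (65.7%) of all 8251 genes exceeded 200.8 and 988 (11.97%) were below 85.3 on both Dil arrays. Serpinh1, the collagen chaperone, had 11551 in Dil a and 11180.2 in Dil b, Mmp14, a membrane-bound collagenase, had 4485 in Dil a and 4332 in Dil b, and the inhibitor Timp3 had 3854 in Dil a and 3305 in Dil b. Mmp7, Mmp12 and Mmp13 were the dimmest, at no more than 79.4 on either array.

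Endothelial transcripts were widely measured, and 23 of 25 exceeded 200.8 in both arrays (median percentile 84.8, with 9 in the brightest 10%). Cdh5, the cadherin of endothelial junctions, had 9231 in Dil a and 9657 in Dil b, and Ramp2, the partner of the adrenomedullin receptor, had 10092 in Dil a and 9585 in Dil b. The transcription factor Sox17 had 3061 in Dil a and 3880.5 in Dil b, its relative Sox18 had 5219 in Dil a and 5526 in Dil b, and Tie1, a receptor tyrosine kinase of endothelium, had 4552 in Dil a and 3577 in Dil b. The 3 dimmest were Ednrb, Calcrl and Angpt1, the last at 115 in Dil a and 91.7 in Dil b. No gene of this list differed by over 2-fold between the Dil arrays, against 6.71% (554 of 8251) of all genes. Many other lists had none either, among them the collagen, macrophage, type I, club cell, smooth muscle, fibroblast and heart lists. This was therefore not particular to endothelium.

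**Figure D3:**
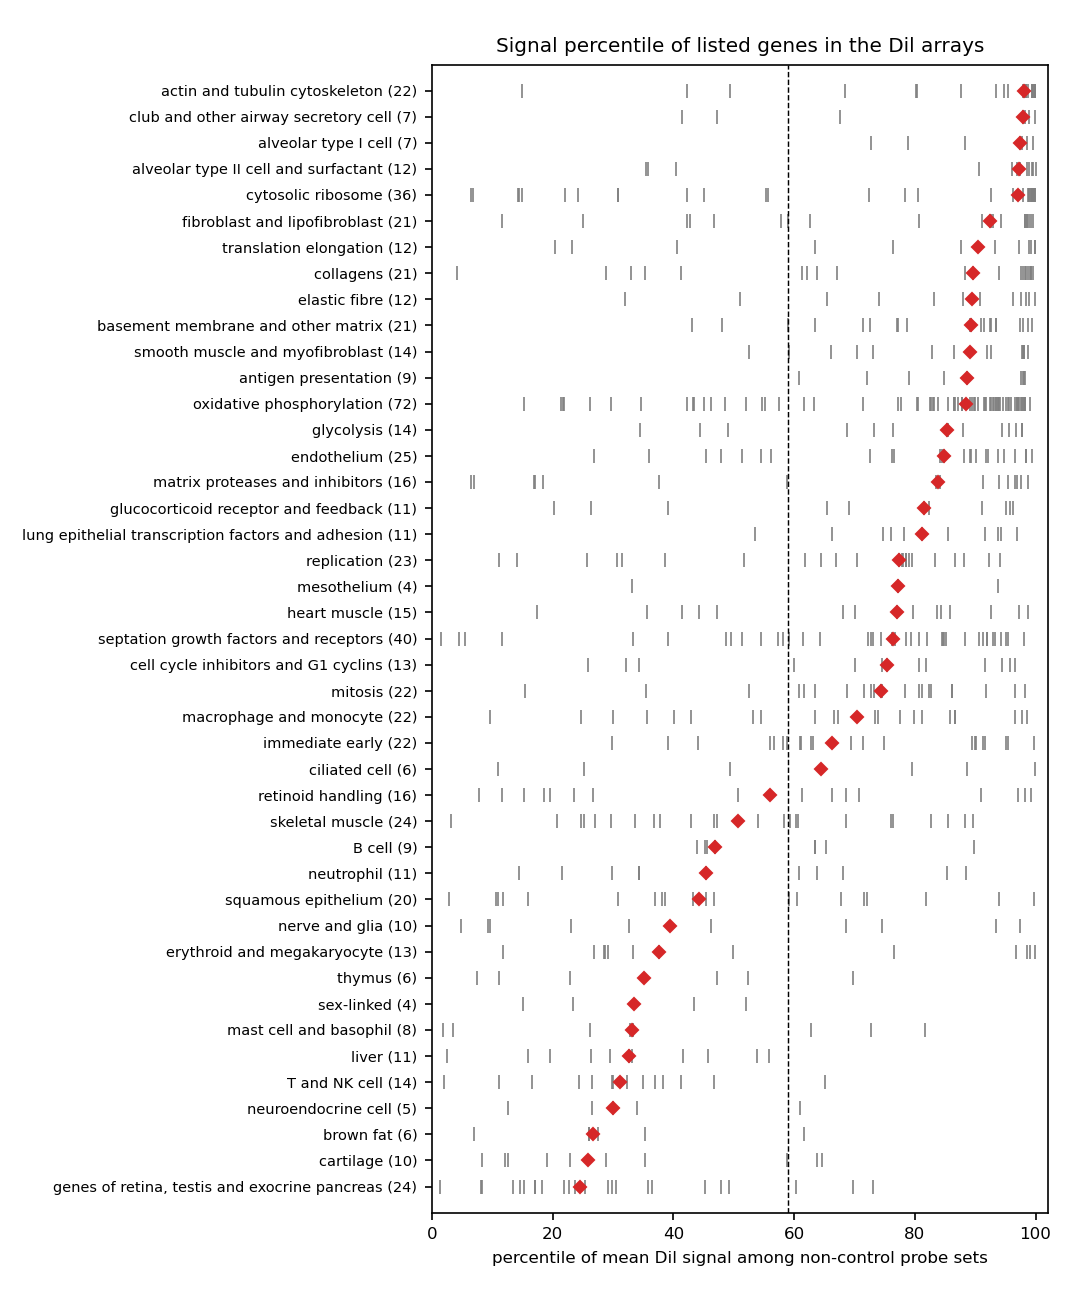
Percentile of the mean Dil signal among all non-control probe sets for each measured gene (ticks) of the 43 lists, with list medians (diamonds), the number of genes in brackets and the median of all 8251 genes (dashed line, 59.0). Alveolar, club cell, matrix, contractile and biosynthetic lists lie at the right, ciliated cells (64.4) lie close to the line, and the lists of squamous epithelium (44.3), T cells, liver, cartilage and unrelated organs lie left of it.

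Growth factors and receptors linked to septation spanned the whole range of brightness. Of 40 measured genes, 34 exceeded 200.8 in both Dil arrays, with a median percentile of 76.5. Under 85.3 on both were 4 (10%), a share close to the 11.97% of all genes. Igf2, a growth factor of fetal and newborn tissue, had 8126 in Dil a and 8036 in Dil b, and Igfbp4, a binding protein of insulin-like growth factors, had 4329 in Dil a and 4392 in Dil b. Pdgfa, the ligand that recruits alveolar myofibroblasts, had 3451 in Dil a and 4109.8 in Dil b, Fgfr2, an epithelial receptor for fibroblast growth factors, had 3579.8 in Dil a and 3100.5 in Dil b, and Igf1r, the receptor for insulin-like growth factors, had 2689.5 in Dil a and 3769.6 in Dil b. Vegfa, the ligand of Kdr, had 925 in Dil a and 877 in Dil b. The 3 dimmest were the receptors Tgfbr1 and Tgfbr2 and the ligand Fgf2, none above 31.4 on either array.

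The machinery for retinoic acid and glucocorticoid, the agents given on the other arrays, ranged from bright to dim at baseline. Of 16 retinoid genes, 9 (56.25%) exceeded 200.8 in both arrays, against 65.7% of all genes. Adh1, an alcohol dehydrogenase that can oxidize retinol, had 13589 in Dil a and 16564 in Dil b, Aldh1a1, which makes retinoic acid from retinal, had 9414 in Dil a and 8775 in Dil b, and of the partner receptors Rxrb had 2643 in Dil a and 2600.4 in Dil b and Rxra had 733 in Dil a and 922 in Dil b. Stra6, the retinol uptake receptor, was at 23.9 in Dil a and 51.2 in Dil b. Of 11 glucocorticoid genes, 8 (72.7%) exceeded 200.8 in both arrays, so the 2 lists lay on either side of the share of all genes. Of the chaperones of the receptor, Hsp90aa1 had 5020.3 in Dil a and 5243 in Dil b and Fkbp4 had 4960.2 in Dil a and 4463 in Dil b. Hsd11b1, which regenerates active glucocorticoid, had 1201 in Dil a and 1595 in Dil b, while the receptor gene itself, Nr3c1, had 57.7 in Dil a and 143 in Dil b. Tsc22d3, a classic glucocorticoid target, differed between the arrays, at 68.3 in Dil a and 325 in Dil b.

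Transcripts of dividing cells were measured in most cases and at middle to high brightness. Of 22 mitosis genes, 20 exceeded 200.8 in both Dil arrays, with a median percentile of 74.5. Stmn1, a microtubule destabilizer of proliferating cells, had 9159 in Dil a and 8828 in Dil b, Cdc20, an activator of the anaphase-promoting complex, had 2517 in Dil a and 3118 in Dil b, Cdk1, the mitotic kinase, had 1961 in Dil a and 1727 in Dil b, and its partner Ccna2 had 1986 in Dil a and 1663 in Dil b. Of 23 replication genes, 17 (73.9%) exceeded 200.8 in both Dil arrays (median percentile 77.4). That list was led by Pcna, the sliding clamp of DNA polymerase, at 3761 in Dil a and 3487 in Dil b. Next came the helicase subunits Mcm5 at 3502 in Dil a and 2414 in Dil b and Mcm3 at 2276 in Dil a and 1903 in Dil b. Among G1 regulators, Cdk4 had 4888 in Dil a and 6064 in Dil b, Ccnd1 had 2763 in Dil a and 2834 in Dil b, and Cdkn1c, an imprinted inhibitor of cyclin-dependent kinases, had 4515 in Dil a and 4976 in Dil b. Genes that drive the cycle and a gene that restrains it were both well measured.

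Blood and immune transcripts fell into bright and dim groups. In the erythroid and megakaryocyte list, Hbb-b2, a beta globin with a near-identical neighbour, had 13523 in Dil a and 14203 in Dil b, Alas2, the first enzyme of haem synthesis in red cell precursors, had 4754 in Dil a and 6576 in Dil b, and Car2, the carbonic anhydrase of red cells and other cells, had 9969 in Dil a and 10504 in Dil b, but of their regulators Gata1 was at 193 in Dil a and 34.5 in Dil b, and Klf1 was at 14.5 in Dil a and 61.4 in Dil b. Only 6 of the 13 genes of that list exceeded 200.8 in both arrays. Of 22 macrophage and monocyte genes, 16 did so: Apoe, an apolipoprotein of macrophages and other cells, had 6488 in Dil a and 8179.9 in Dil b, Tyrobp, an adaptor of myeloid receptors, had 1731 in Dil a and 2036 in Dil b, C1qc, a complement component, had 1347 in Dil a and 2403 in Dil b, and Marco, a scavenger receptor of macrophages, had 24.9 in Dil a and 38.4 in Dil b. All 9 antigen presentation genes exceeded 200.8 on both arrays, led by Cd74, the invariant chain of class II complexes, at 7761 in Dil a and 9965 in Dil b.

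By median percentile, lymphocyte and granulocyte lists lay below the 59.0 of all genes. Of 9 B cell genes, 7 (77.8%) exceeded 200.8 on both arrays, a share above the 65.7% of all genes, although their median percentile was 47.0. The heavy chain gene Ighm had 2265 in Dil a and 2456 in Dil b, and Cd79b, part of the B cell receptor, had 665 in Dil a and 629.6 in Dil b. Of 14 T and NK cell genes only 2 exceeded 200.8 on both arrays, and their median percentile was 31.2. Cd3e, a subunit of the T cell receptor complex, had 46.2 in Dil a and 63.6 in Dil b, and Cd8a had 20.3 in Dil a and 51.2 in Dil b. In the neutrophil list S100a8 had 2245 in Dil a and 1250.0 in Dil b, and 5 of 11 genes were above 200.8 on both arrays. Of 8 mast cell and basophil genes, 3 exceeded 200.8 on both arrays. Kit, a receptor of mast cells and other cells, had 1460.0 in Dil a and 1368 in Dil b. The next brightest were the mast cell genes Tpsb2 and Cma1, while Fcer1a and Mcpt4 lay under 85.3 on both arrays.

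Some genes of lists named for other tissues were measured too, and the values do not show which cells made them. In the heart list, 12 of 15 genes exceeded 200.8 on both arrays, among them the atrial light chains Myl7 at 5992 in Dil a and 6850.4 in Dil b and Myl4 at 3255 in Dil a and 2932 in Dil b, and the cardiac actin Actc1 at 10796 in Dil a and 11456 in Dil b, on a probe set whose suffix marks probes shared with other transcripts. In the skeletal muscle list, 13 of 24 did so, with Tnni1, a slow-muscle troponin, at 2372 in Dil a and 2346 in Dil b, and the muscle myosins Myh1, Myh2 and Myh8 at no more than 135 on either array. In the liver list 2 of 11 did so, and in the list of genes of retina, testis and exocrine pancreas 5 of 24, the brightest being Tnp1, a sperm nuclear protein, at 799 in Dil a and 1043 in Dil b. Signals well above 200.8 therefore occurred for genes known from other organs. The 19 bacterial and yeast control probe sets that were not spiked in reached a highest signal of 179 in Dil a and 269 in Dil b.

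Where the Dil arrays stood apart from the other 6 arrays was recorded without a test. Across all genes, both Dil arrays lay above all 6 others in 6.08% (502 of 8251) and below all 6 in 4.44% (366 of 8251). The lists with at least 4 genes above all others were antigen presentation (7 of 9), heart (8 of 15), G1 regulators (5 of 13), elastic fibre (4 of 12), skeletal muscle (7 of 24), smooth muscle (4 of 14), glycolysis (4 of 14), septation growth factors (10 of 40), fibroblast (5 of 21), replication (5 of 23), squamous epithelium (4 of 20) and collagens (4 of 21), and 16 of the 43 lists had none. In the other direction, 4 of 22 immediate early genes lay below all 6 others, as did 2 of 21 fibroblast and 2 of 72 oxidative phosphorylation genes, and no other list had more than 1. For the 2073 genes with at least 2 probe sets, the one used was picked by its Dil signal. That choice can favour a place above the other 6 arrays. These lists were also chosen with results of these arrays in view, so the counts describe the arrays only.

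The values behind the tissue lists were as follows, on the same probe sets picked by Dil signal. The summed signal of the heart list was 29951 in Dil a and 31123 in Dil b, against 21072 to 25442 over the other 6 arrays. Without Actc1, left out after the data were seen, it was 19156 in Dil a and 19667 in Dil b, against 13405 to 16876. That of the skeletal muscle list was 14687 in Dil a and 15095 in Dil b, against 8411 to 10832. Acta1, the actin of skeletal muscle fibres, had 2198 in Dil a and 1314 in Dil b, against 79.0 to 643, and the 2 groups of arrays did not overlap. The squamous list summed to 35117 in Dil a and 41063 in Dil b, against 25682 to 36555, which overlap. The single probe set of Sprr1b described above made up 66.7% of that sum in Dil a and 78.9% in Dil b; without it, a choice made after the data were seen, the sums were 11704 in Dil a and 8673 in Dil b, against 4920.0 to 6421, which do not overlap. Krt4, a keratin of the oesophagus and other moist squamous epithelia, had 4679.6 in Dil a and 2553 in Dil b, against 899 to 1968, and its partner Krt13 had 1092 in Dil a and 349.9 in Dil b, against 13.2 to 292. Krt5 and Krt15, keratins of basal cells, were at 36.9 or less on both Dil arrays. For antigen presentation the sums were 37166 in Dil a and 39526 in Dil b, against 25676 to 28271. For the 9 spiked-in controls the Dil mean was at least 1.19 times, and in the median 1.34 times, that of the other arrays. Dil b was above all 6 others for 9 of the 9, but both Dil arrays were so for 3, and RA-Dex a exceeded Dil a for 6. The part of spike-in level and of other tissue in these differences was not tested.

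**Figure D4:**
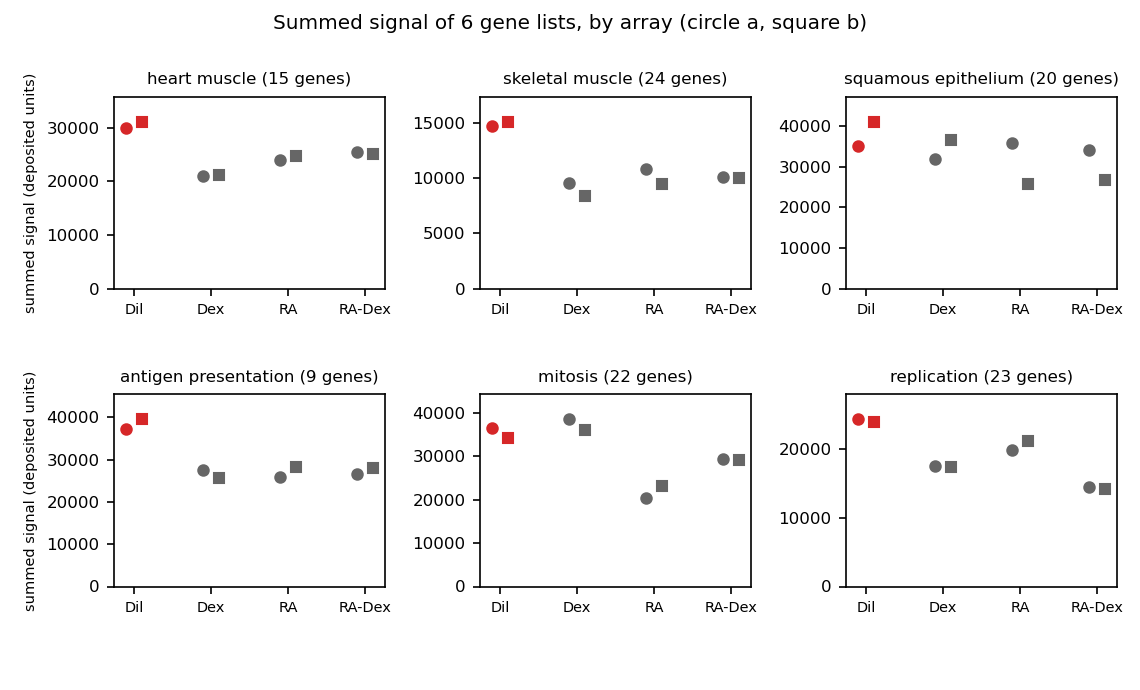
Summed signal (deposited units, linear axis from 0) of 6 gene lists on each array, with each gene's probe set brightest by mean Dil signal. Circles mark replicate a, squares replicate b, and red the Dil arrays. Both Dil arrays lie above the other 6 for the heart, skeletal muscle, antigen presentation and replication lists, and among them for the mitosis list; for the squamous list Dil b lies highest and Dil a among the others, an order set by Sprr1b, without which the sums are 11704 in Dil a and 8673 in Dil b.

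Sex-linked transcripts were dim and did not settle the sex of the animals, which the labels do not give. Xist, the RNA that coats the inactive X chromosome of females, had 324 in Dil a and 401 in Dil b, against 419 to 950.2 over the other 6 arrays. The Y-linked Eif2s3y had 365 in Dil a and 122 in Dil b on a probe set with shared probes, Uty had 132 in Dil a and 38.7 in Dil b, and Kdm5d had 54.4 in Dil a and 45.2 in Dil b. Both Dil values of Xist were below all others, and none of the Y-linked genes exceeded 200.8 on both arrays.

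The 2 Dil arrays agreed closely for bright probe sets and poorly for dim ones. With signals under 85.3 set to that value, Pearson's r of their log2 signals over the 12422 probe sets was 0.964 and Spearman's rho 0.944, both across probe sets, which are not independent replicates. A total of 863 probe sets (6.95%) differed by over 2-fold, and by gene, over brightest probe sets, 6.71% (554 of 8251) did so. The 3 other pairs of same-group arrays had r between 0.965 and 0.975, with 543 to 818 probe sets over 2-fold apart. The Dil pair was lowest of the 4 pairs in r and highest in that count, close to the RA pair (0.965 and 818), but its median absolute log2 difference of 0.22 was below the 0.23 of the RA pair. Dil a had a higher r with 3 of the 6 other arrays than with Dil b, namely RA b (0.972), Dex a (0.966) and RA-Dex b (0.965), and Dil b with none.

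Disagreement was a matter of brightness. In the fourth of 10 equal bins of mean signal, spanning 123 to 207, 31.8% differed by over 2-fold, against 0.242% in the brightest 10%. Where both arrays exceeded 200.8, 1.86% (130 of 6980) did so. In the brightest 10% these were 3 probe sets, named after their values were seen. Rps19 of the small ribosomal subunit had 22298 in Dil a and 10225 in Dil b, Mcl1, a survival protein of the Bcl2 family, had 3735 in Dil a and 1451 in Dil b, and a probe set annotated to several genes had 4484 in Dil a and 1447 in Dil b, against 77.0 to 117 on the other arrays.

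**Figure D5:**
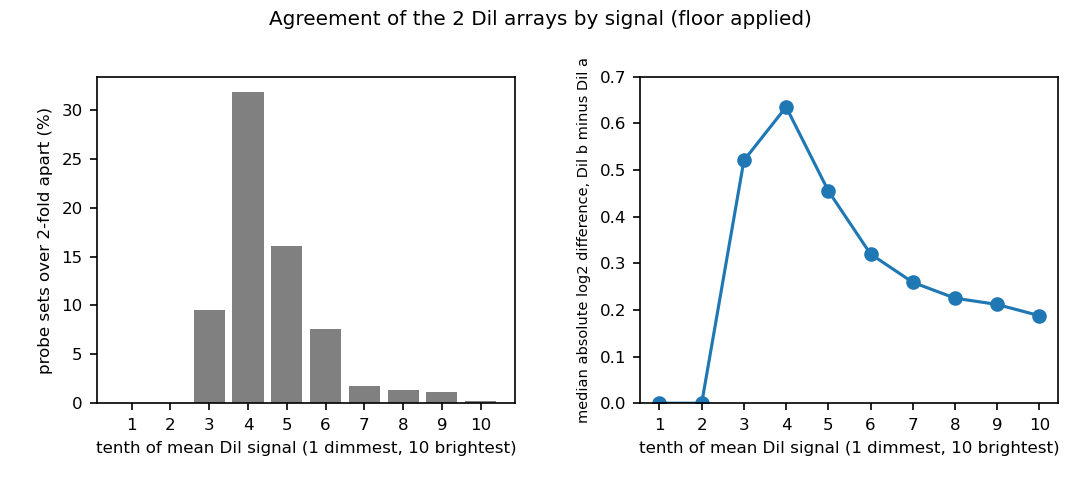
Agreement of Dil a and Dil b in 10 equal bins of mean Dil signal, dimmest at the left, as the percent of probe sets over 2-fold apart (bars) and the median absolute log2 difference (line), with signals under 85.3 set to that value. Disagreement peaks in the fourth bin, at 31.8%, and is 0.242% in the brightest; the 2 dimmest bins are at 0 because the floor removes their differences.

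At the very top Dil b was brighter than Dil a. It gave the higher signal for 46 of the 50 brightest probe sets (median log2 difference 0.22) and 79 of the 100 brightest (median ratio 1.14), though its median ratio in the brightest 10% as a whole was 1.02. After quantile normalization over the 8 arrays, 21 of the 50 were higher in Dil b. Ratios of the 3′ to the 5′ actin control probe sets were 1.69 in Dil a and 1.36 in Dil b, and those of Gapdh were 1.53 in Dil a and 1.55 in Dil b; the part of RNA quality in the array difference was not tested.

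Individual genes that differed most between the arrays were of low to middle brightness. Among probe sets with a mean Dil signal over 200.8, Tm7sf2, an enzyme of sterol synthesis, had 48.4 in Dil a and 958 in Dil b, and the tropomyosin gene Tpm3 had 71.9 in Dil a and 592 in Dil b, against 14.9 to 86.3 over the other 6 arrays. The others of the 10 with the largest excess in Dil b were Glra1, Pus1, Six2, Gtf2f2, Tug1, Matn2, Ngef and Galr1, at 5.88- to 7.29-fold with the floor applied. In the other direction Snx12, a sorting nexin, had 719 in Dil a and 92.8 in Dil b, Alb, the albumin gene of liver, had 671 in Dil a and 122 in Dil b, and Arg1, the arginase of liver and other cells, had 487 in Dil a and 108 in Dil b. Dil a was above the other 6 arrays for both genes, which reached 177 for Arg1 and 459 for Alb. The remaining 7 of that set were Cryz, Six5, Ikbkg, Hspb11, Atp5pb, Nudt5 and Pcgf2. In all 20 the lower array was at or under 144, so these folds rest on signals close to the controls that were not spiked in.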

How the data were processed

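The study hybridized total lung RNA to 8 Affymetrix mouse arrays, and the 2 Dil arrays were described without a contrast. The authors deposited 1 linear intensity per probe set and array. Software and steps from scan to value were not given in the sources used here; means trimmed by 2% at both ends came to 800.4 on all arrays, which shows a common scaling. No detection calls were used, and all 8 columns of values belong to these arrays. Per-array medians were 325 in Dil a and 341 in Dil b, against 316 to 342 on the other 6, and the number of arrays limits the precision.

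Control probe sets (66 of 12488) were left out. Gene symbols came from the array's annotation of 2016 and were updated through Entrez IDs with a RefSeq table (GRCm38.p6, used for names and promoters): 10833 probe sets had 1 symbol (10817 matched by Entrez ID), 396 several and 1193 none. Signals under 85.3, the pooled 25th percentile, were set to it before log2 was taken for agreement; ranks used the mean of the linear signals. Each of the 8251 genes was represented by its probe set brightest by mean Dil signal. No test was run and no p-value is given.

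The Dil arrays and the 43 gene lists were chosen with earlier results of these data known, and no list is independent support. Genes named are the 30 brightest with 1 symbol outside the ribosomal and elongation lists, from each list the 6 brightest and 3 dimmest or some of them, the 10 largest differences in each direction between the Dil arrays, the 4 markers and the sex-linked genes; others are said to have been chosen after their values were seen. Alternatives were no floor, a higher floor, a pseudocount, a filter, quantile normalization, the geometric mean, averaging the probe sets of a gene, each Dil array alone, and all 8 arrays. The counts of genes above or below all other arrays, the sums without Sprr1b or Actc1, and the motif TATAA were added after the data were seen. Agreement counts and the normalization were tested on simulated data. Python 3.11.15, numpy 2.4.6, pandas 2.3.3, scipy 1.17.1 and matplotlib 3.10.9 were used.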

Additional observations from a re-analysis of the deposited data

How the results depend on the processing

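The agreement of the Dil arrays depended on how dim signals were treated. Pearson's r was 0.964 with the floor at the pooled 25th percentile, 0.922 with no floor, 0.976 with the floor at the pooled 40th percentile, 0.957 with a pseudocount of 50, 0.948 over probe sets above the pooled 40th percentile, and 0.965 after quantile normalization. The number over 2-fold apart was 863 with that floor, 2529 with no floor, 227 with the higher floor, 324 with the filter (7309 probe sets tested), 1127 with the pseudocount and 846 after quantile normalization. Of the 50 brightest probe sets, 45 were kept with Dil b alone, 48 with Dil a alone, 50 with the geometric mean or quantile normalization, and 45 over all 8 arrays. Probe sets above the pooled 40th percentile numbered 6980 on both arrays, 7607 without Dil a, 7447 without Dil b and 6919 after quantile normalization; 8626 exceeded the pooled 25th and 4680 the pooled 60th percentile. The median percentile of all genes was 59.0, or 55.7 when the probe sets of a gene were averaged, since averaging brings in dimmer probe sets, and 59.0 to 59.1 without 1 Dil array. That averaging moved the 43 list medians by a median of 1.97 points and by at most 17.3 (proteases and inhibitors, to 66.4); leaving out Dil a moved them by at most 11.2 points and leaving out Dil b by at most 9.48. No paired analysis was possible because no test between groups was run; the counts and sums set against the other 6 arrays use no pairing of letters. With 2 arrays of unstated origin, the spread between them may be technical, and signals up to 269 are within reach of controls that were not spiked in.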

Other observations

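The energy supply of the newborn lung was broadly measured in the Dil arrays. Of 72 oxidative phosphorylation genes, 62 exceeded a signal of 200.8 on both arrays and 32 were in the brightest 10%, with a median percentile of 88.5; Cox6a1, a subunit of cytochrome oxidase, had 13182 in Dil a and 16353 in Dil b. Of 14 glycolysis genes, 13 did so, led by the aldolase Aldoa with 7100.5 in Dil a and 7749 in Dil b. Of 22 immediate early genes, known to respond within minutes to handling and stress, 20 did so, with Jund at 22714 in Dil a and 28004 in Dil b and Myc at 127 in Dil a and 118 in Dil b. Of 36 ribosomal protein genes, 25 exceeded 200.8 on both arrays and 5 (13.9%) were under 85.3 on both, close to the 11.97% of all genes. Among these 5 was Rpl32 at 27.0 in Dil a and 21.9 in Dil b, although ribosomal proteins are made by all cells.

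Lists for other places in the chest and the body were small. Cartilage genes exceeded 200.8 on both arrays in 3 of 10 cases, brown fat genes in 1 of 6, thymus genes in 3 of 6, neuroendocrine genes in 1 of 5, nerve and glia genes in 5 of 10 and mesothelium genes in 3 of 4. Among these, Msln, the mesothelial surface protein mesothelin, had 1114 in Dil a and 1135 in Dil b, and Rag1, a recombinase of developing lymphocytes, had 724 in Dil a and 856 in Dil b.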
